A study of Mus musculus with 6 samples.

Results

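The genes described here are 7 muscle-secreted cytokines and growth factors: Csf1 and Il34, which encode the ligands of the macrophage growth factor receptor CSF1R, and Il15, Lif, Il6, Il33 and Il1b. They were taken by gene symbol from the 49592 genes of a deposited expression table, and each symbol matched 1 gene. All 7 had reads, and 6 of them passed the minimum used for testing, a mean of at least 0.5 FPKM (fragments scaled by gene length and library depth) over the libraries.

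Poly(A)-enriched RNA was sequenced from C2C12 cells, an established mouse myoblast line. The line fuses into myotubes in low serum. Cells grown in 10% fetal bovine serum were kept in 2% horse serum for 3 days. Cultures then received 10 ng/ml TWEAK for 12 h or were left untreated, with 3 libraries in each group, numbered by trial. TWEAK is a cytokine of the TNF superfamily. Whether each trial was a culture of its own is not stated in the labels, and the spread that p-values measure here may be technical. A cell line also lacks the macrophages, vessels and nerves of muscle, and RNA levels alone do not show what was secreted.

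Myokines are proteins that muscle fibres release to act on themselves or on other cells. CSF1 and IL-34 are unrelated in sequence yet bind the same receptor, on which most tissue macrophages depend for survival and growth. LIF and IL-6 belong to the IL-6 family and signal through the shared subunit gp130, encoded by Il6st, and the JAK-STAT pathway. IL-15, a cytokine abundant as mRNA in skeletal muscle, signals through the IL-2 receptor beta chain and the common gamma chain. IL-33 and IL-1 beta belong to the IL-1 family. IL-33 is a nuclear alarmin released by damaged cells, and IL-1 beta is made as a precursor that a caspase must cleave.

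The 250 bases before the annotated start of 4 of the genes are shown. Of these, Csf1 and Il1b rose with TWEAK, Lif did not pass the test and Il6 lay under the minimum for testing. The sequences come from RefSeq on build GRCm38.p6, which is not the GRCm39 of the expression table, and run 5′ to 3′ on the gene's strand. The Csf1 promoter lies at chr3:107760470-107760719 on the minus strand, that of Lif at chr11:4257318-4257567 on the plus strand, that of Il6 at chr5:30012864-30013113 on the plus strand and that of Il1b at chr2:129371140-129371389 on the minus strand. Capitals mark matches, on either strand, to the NF-κB consensus, to the AP-1 site TGANTCA and to the C/EBP pattern TTNNGNAAT.
Csf1: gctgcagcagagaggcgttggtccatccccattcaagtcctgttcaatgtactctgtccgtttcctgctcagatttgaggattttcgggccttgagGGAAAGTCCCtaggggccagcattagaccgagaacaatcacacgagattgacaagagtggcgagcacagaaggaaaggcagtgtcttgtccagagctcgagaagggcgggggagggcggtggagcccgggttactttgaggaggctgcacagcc
Lif: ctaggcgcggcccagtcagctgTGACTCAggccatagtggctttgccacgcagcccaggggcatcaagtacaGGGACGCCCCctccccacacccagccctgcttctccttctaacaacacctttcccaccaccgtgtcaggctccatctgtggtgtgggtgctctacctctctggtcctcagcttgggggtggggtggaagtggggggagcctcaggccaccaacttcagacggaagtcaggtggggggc
Il6: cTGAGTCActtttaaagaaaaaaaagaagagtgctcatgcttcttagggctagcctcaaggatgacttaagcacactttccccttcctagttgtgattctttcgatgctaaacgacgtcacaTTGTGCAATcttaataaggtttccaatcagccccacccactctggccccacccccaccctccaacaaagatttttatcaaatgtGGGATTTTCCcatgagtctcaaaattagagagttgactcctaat
Il1b: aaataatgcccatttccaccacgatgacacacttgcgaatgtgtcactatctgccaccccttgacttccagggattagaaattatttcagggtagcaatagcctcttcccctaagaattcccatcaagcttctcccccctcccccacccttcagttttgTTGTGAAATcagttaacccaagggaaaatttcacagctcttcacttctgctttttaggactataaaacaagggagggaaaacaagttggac

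Of the 7 genes, 5 had an entry in the promoter table, with 6 promoters in all because Il33 had 2. Il34 and Il15 had none. The window searched ran from 250 bases before to 50 bases after each start. Csf1 held an NF-κB consensus match 154 to 145 bases before the start. Lif held one 178 to 169 bases before it, matching on both strands, and an AP-1 match at 228 to 222 bases. Il6 held all 3 kinds, with the NF-κB match at 44 to 35 bases, the C/EBP match at 128 to 120 and the AP-1 match at 249 to 243. Il1b held only a C/EBP match, at 91 to 83 bases, and neither Il33 window held any of the 3. No match overlapped one of another kind. Among 32841 mouse promoters of the same length, 8.46% held the NF-κB consensus, 7.81% the AP-1 site and 11.5% the C/EBP pattern. A match is a description of these letters and not evidence of binding. Among the tested genes with a promoter, Csf1, which rose, and Lif, which did not pass, both held an NF-κB match. Il1b, which rose, and Il33, which did not pass, held none. Il6 was too low to test. So few genes cannot show whether a match goes with a rise.

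With TWEAK, Csf1, Il34 and Il1b transcripts were about doubled, and Il15, Lif and Il33 did not pass the test. Il6 lay under the minimum and was not among the genes tested. The main test was limma on log2(FPKM + 1), with Benjamini-Hochberg adjustment over the 12770 genes that passed the minimum, and a call at an adjusted p under 0.05. It called 3 of the 6 tested members higher and 0 lower, where 8.98% of all tested genes were called higher and 6.10% lower. Of the tested members, 1 was lower at an unadjusted p under 0.05, Il33 at 0.0355. Without the trial as a block, limma-voom on recovered reads also called 0 lower. With the block it called 1 lower, Il33 (limma-voom adjusted p = 0.0270). Csf1, Il34 and Il1b had no overlap between the groups, every TWEAK library being higher, as did 20.0% of the tested genes. No tested member had every TWEAK library lower, against 15.9% of the tested genes. The median log2 fold change was 0.35 over the 6 tested members and 0.01 over all tested genes. In the authors' deposited table, 3 members were higher and 1, Il33, was lower, where 11.2% of the genes with an adjusted p were higher and 9.38% lower.

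**Figure D1:**
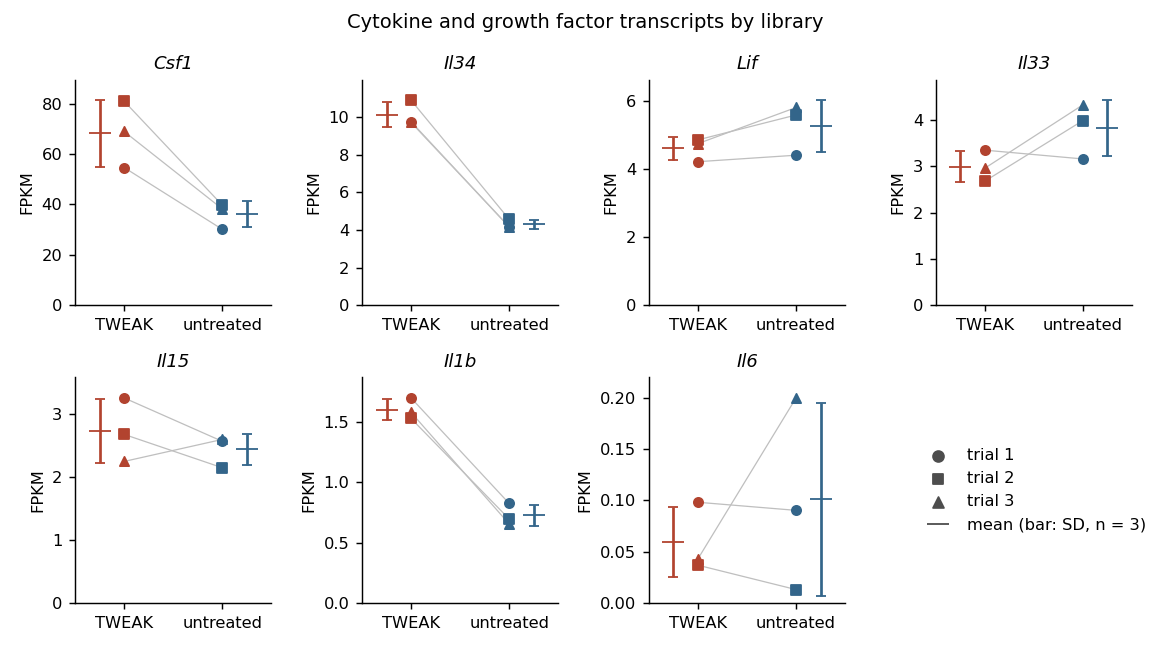
Expression of the 7 genes in each library, in FPKM on a linear axis from 0, with TWEAK left and untreated right. Symbols mark the trial, grey lines join libraries of the same trial, and the bar beside each group is its mean and SD (n = 3). The TWEAK points of Csf1, Il34 and Il1b all lie above the untreated ones, and the groups overlap for Lif, Il33, Il15 and Il6.

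Csf1 (ENSMUSG00000014599.11, GRCm39 chr3:107648364-107667785) was the most abundant of the 7 in both groups. It measured 54.6, 80.9 and 68.9 FPKM in TWEAK libraries 1, 2 and 3, against 30.1, 39.7 and 38.2 FPKM in untreated libraries 1, 2 and 3. Every TWEAK library was above every untreated one, and trial 1 had the lowest value in each group. The means were 68.1 ± 13.2 FPKM with TWEAK and 36.0 ± 5.18 FPKM untreated (SD, n = 3 each), a fold of 1.89. The log2 fold change was 0.89 (SE 0.15, 95% interval 0.57 to 1.22, limma adjusted p = 0.00482). Within trials 1, 2 and 3 the folds were 1.81, 2.04 and 1.80. The gene's mean level was above that of 89.7% of the tested genes. The counting behind it was deep, with 27246 reads over the TWEAK libraries and 16088 over the untreated ones.

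Il34 (ENSMUSG00000031750.16, chr8:111468461-111532556) measured 9.72, 10.9 and 9.76 FPKM in TWEAK libraries, against 4.17, 4.57 and 4.16 FPKM in untreated libraries. The libraries of each group lay close together and the groups were far apart. The means were 10.1 ± 0.684 FPKM with TWEAK and 4.30 ± 0.235 FPKM untreated (SD, n = 3 each), a fold of 2.35. The log2 fold change was 1.07 (SE 0.08, 95% interval 0.90 to 1.24, limma adjusted p = 6.10e-05). Within the trials the folds were 2.33, 2.39 and 2.34. It had 1735 reads over the TWEAK libraries and 821 over the untreated ones, and its level was above that of 45.3% of the tested genes. Il34 overlaps the predicted noncoding genes Gm15895 and Gm15894 in position. Gm15895 was at 0 in all libraries, and Gm15894 averaged 0.00530 FPKM with TWEAK and 0 untreated, so little of the count was assigned to them.

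The summed level of the CSF1R ligands was 64.3, 91.8 and 78.6 FPKM in TWEAK libraries, against 34.3, 44.3 and 42.4 FPKM in untreated libraries. Csf1 supplied 84.9, 88.1 and 87.6% of that sum in TWEAK libraries, against 87.8, 89.7 and 90.2% in untreated libraries. The ranges of this share overlapped, and within each of the 3 trials it was lower with TWEAK, with differences of -2.95, -1.57 and -2.59 percentage points in trials 1, 2 and 3. Its means were 86.9 ± 1.74% with TWEAK and 89.2 ± 1.24% untreated (SD, n = 3 each), a difference of -2.37 percentage points (two-sided exact permutation test, p = 0.200). With 3 libraries against 3, the smallest p that test can give is 0.10, so it cannot pass at 0.05. A two-sided exact permutation within trials, added after seeing the data, gave p = 0.25, the smallest it can give. The difference was -1.38 points without TWEAK replicate 1, and -1.18 points on recovered reads not divided by length. Most CSF1R ligand mRNA per length was thus Csf1 in both groups.

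**Figure D2:**
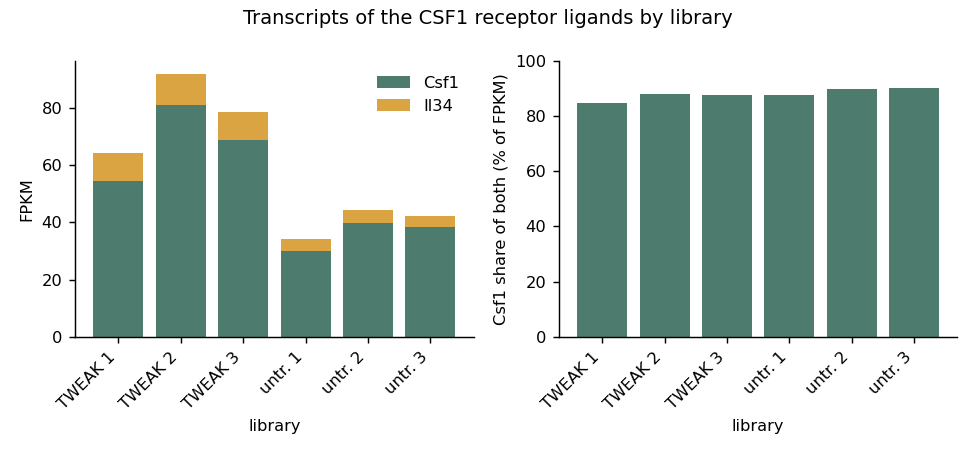
Transcripts of the CSF1R ligands in each library (untr., untreated). The left panel stacks Csf1 and Il34 in FPKM, and the right panel gives the Csf1 share of their sum in percent. The sum is higher in every TWEAK library (64.3 to 91.8 FPKM) than in any untreated one (34.3 to 44.3 FPKM), and the share lies between 84.9 and 90.2% throughout.

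Transcripts of the receptor itself were almost absent. Csf1r averaged 0.0108 FPKM with TWEAK and 0.0152 FPKM untreated, from 5 and 8 reads. Ptprz1, which encodes a phosphatase that also binds IL-34, was at 0 in all 6 libraries. Sdc1, which encodes syndecan-1, a proteoglycan that binds IL-34, was well expressed at 43.1 ± 5.78 FPKM with TWEAK and 42.1 ± 2.18 FPKM untreated (SD, n = 3 each; log2 fold change with limma adjusted p = 0.876).

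Markers of other cells were checked because CSF1 receptor ligands are discussed in terms of macrophages. Of 15 macrophage and leukocyte markers, 3 were tested and 1, Cd14, rose, with 4.37 ± 0.491 FPKM with TWEAK and 2.95 ± 0.269 FPKM untreated (SD, n = 3 each; limma adjusted p = 0.0142). The Cd14 call was lost without TWEAK replicate 2 (adjusted p = 0.0540) and without untreated replicate 1 (adjusted p = 0.0537). The 15 summed to 6.47 to 8.07 FPKM in TWEAK libraries and 5.90 to 6.42 FPKM in untreated libraries. Adgre1, Aif1, Fcgr1, C1qa and Tyrobp were at 0 in all libraries, and the pan-leukocyte gene Ptprc averaged 0.00358 FPKM with TWEAK and 0.00177 FPKM untreated. The 5 endothelial markers summed to 0.0585 to 0.0796 FPKM in TWEAK libraries and 0.0671 to 0.104 FPKM in untreated libraries. The 6 fibroblast markers summed to 115 to 146 FPKM in TWEAK libraries and 135 to 171 FPKM in untreated libraries, and 1 of 5 tested, Pdgfrb, fell to 45.5 ± 3.46 FPKM with TWEAK, against 69.6 ± 8.47 FPKM untreated (SD, n = 3 each; limma adjusted p = 0.00490). All 10 myotube markers were expressed, with sums of 9125 to 10241 FPKM in TWEAK libraries and 10053 to 11143 FPKM in untreated libraries. Of these, Myod1, Myh3 and Myh8 fell and none rose. Over all tested genes, 8.98% were called higher and 6.10% lower. The Myod1 call (limma adjusted p = 0.0142) was lost without TWEAK replicate 2 (0.0801), untreated replicate 1 (0.0597) or untreated replicate 2 (0.0579). The part of these shifts in the cytokine values was not tested, and in such bulk samples fewer cells of a type and less RNA per cell cannot be told apart.

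Of the IL-6 family members, Lif did not pass the test and Il6 lay under the minimum for testing. Lif (ENSMUSG00000034394.15, chr11:4207557-4222514) encodes a cytokine that keeps myoblasts proliferating in culture. It measured 4.21, 4.85 and 4.74 FPKM in TWEAK libraries, against 4.40, 5.58 and 5.80 FPKM in untreated libraries. The groups overlapped, and the value was lower with TWEAK in each trial, at folds of 0.956, 0.870 and 0.818. The means were 4.60 ± 0.346 FPKM with TWEAK and 5.26 ± 0.754 FPKM untreated (SD, n = 3 each). The log2 fold change was -0.16 (SE 0.10, 95% interval -0.38 to 0.07, limma adjusted p = 0.343), so a fall of that size and a small rise both lie within the interval.

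Il6 (ENSMUSG00000025746.12, chr5:30218112-30224979), the myokine best known for its rise in exercising muscle, was near the limit of detection. It had 7, 3 and 3 reads in TWEAK libraries, against 7, 1 and 19 reads in untreated libraries. In level this was 0.0982, 0.0368 and 0.0430 FPKM in TWEAK libraries, against 0.0903, 0.0130 and 0.200 FPKM in untreated libraries. Untreated library 3 held most of the untreated reads, and the groups overlapped. The ratio of pooled reads, corrected for depth, was 0.540 with a 95% exact binomial interval of 0.256 to 1.08, which covers counting error only. Both a fall and no change lie within that interval. Within trials 1, 2 and 3 the folds were 1.09, 2.84 and 0.215, so the trials differed in direction and the pooled ratio leaned on untreated library 3. With 1 to 19 reads in the untreated libraries, a change of Il6 in either direction was not established. In a fit with no minimum, its log2 fold change was -0.05 (SE 0.06, limma adjusted p = 0.708), and the authors' deposited table gives it no adjusted p.

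Receptor subunits of this family moved in opposite directions. Il6st, the shared signalling subunit, measured 41.8, 43.7 and 39.3 FPKM in TWEAK libraries, against 29.5, 31.4 and 32.1 FPKM in untreated libraries. It did not overlap between the groups and rose 1.34-fold (log2 fold change 0.41, SE 0.07, limma adjusted p = 0.00499). Lifr, the LIF-binding subunit, measured 10.2, 9.79 and 10.4 FPKM in TWEAK libraries, against 12.4, 13.3 and 15.2 FPKM in untreated libraries. It fell, with a TWEAK to untreated ratio of 0.744 (log2 fold change -0.39, SE 0.08, limma adjusted p = 0.0142), a call lost without TWEAK replicate 2 (adjusted p = 0.0641). Il6ra, which encodes the IL-6-binding subunit, measured 1.12 ± 0.0867 FPKM with TWEAK and 0.913 ± 0.199 FPKM untreated (SD, n = 3 each; limma adjusted p = 0.345).

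Of 8 other genes of IL-6 family cytokines, 5 were tested, 0 rose and 1 fell, with a median log2 fold change of -0.18. Of all tested genes, 8.98% were called higher and 6.10% lower. The gene that fell was Clcf1, which encodes a cytokine of the family. Clcf1 measured 3.01, 3.77 and 3.69 FPKM in TWEAK libraries, against 4.55, 4.95 and 4.27 FPKM in untreated libraries (limma adjusted p = 0.0476). The Clcf1 call was lost when any library was left out, with adjusted p between 0.0562 and 0.156, and with a minimum of 0.1 FPKM (0.0658). With the trial as a block, limma called 15.4% of tested genes higher and 12.5% lower, and 2 genes of this list lower, Clcf1 among them (adjusted p = 0.00886). Osm and Ebi3 were at 0 in all libraries.

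Il15 (ENSMUSG00000031712.11, chr8:83058261-83129851) did not pass the test. It measured 3.26, 2.68 and 2.25 FPKM in TWEAK libraries, against 2.57, 2.15 and 2.60 FPKM in untreated libraries. The highest TWEAK value came from trial 1 and the groups overlapped. The means were 2.73 ± 0.504 FPKM with TWEAK and 2.44 ± 0.248 FPKM untreated (SD, n = 3 each), with a log2 fold change of 0.11 (SE 0.11, 95% interval -0.14 to 0.36, limma adjusted p = 0.544). Trials 1 and 2 gave folds of 1.27 and 1.25 and trial 3 gave 0.867.

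The receptor chains that IL-15 uses changed in opposite directions. Il2rg, which encodes the common gamma chain, measured 6.97, 7.16 and 5.87 FPKM in TWEAK libraries, against 1.07, 1.17 and 0.990 FPKM in untreated libraries. Every TWEAK library was several times any untreated one, a 6.21-fold rise (log2 fold change 1.88, SE 0.09, limma adjusted p = 1.05e-05). Il2rb, which encodes the beta chain, measured 0.611, 0.432 and 0.792 FPKM in TWEAK libraries, against 1.16, 1.53 and 1.45 FPKM in untreated libraries. It fell, at a low level in both groups, with a ratio of 0.443 (log2 fold change -0.57, SE 0.11, limma adjusted p = 0.00986). Il15ra, which encodes the chain that presents IL-15, was under the minimum, with 29 reads over the TWEAK libraries and 14 over the untreated ones. Its depth-corrected read ratio was 2.32, with a 95% exact binomial interval of 1.19 to 4.76 that covers counting error only.

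Il33 (ENSMUSG00000024810.17, chr19:29902514-29938118) was lower with TWEAK in trials 2 and 3 and not in trial 1. It measured 3.35, 2.68 and 2.96 FPKM in TWEAK libraries, against 3.16, 3.99 and 4.33 FPKM in untreated libraries. The groups overlapped through TWEAK library 1 and untreated library 1. The means were 2.99 ± 0.336 FPKM with TWEAK and 3.83 ± 0.604 FPKM untreated (SD, n = 3 each), a ratio of 0.782. The log2 fold change was -0.27 (SE 0.11, limma adjusted p = 0.133). Its 95% interval of -0.52 to -0.02, not adjusted for the number of genes, lies below 0. Within the trials the folds were 1.06, 0.671 and 0.682. The authors' deposited table, whose fit used a count model and may have held more libraries than these, gives a log2 fold change of -0.36 (SE 0.14) and an adjusted p of 0.0463. The limma fit with the trial as a block gave an adjusted p of 0.0581. On recovered reads, limma-voom gave 0.127 without the block and 0.0270 with it.

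Il1b (ENSMUSG00000027398.14, chr2:129206490-129213059) rose at a low level. It measured 1.70, 1.53 and 1.58 FPKM in TWEAK libraries, against 0.825, 0.696 and 0.655 FPKM in untreated libraries. The lowest TWEAK library was well above the highest untreated one. The means were 1.60 ± 0.0866 FPKM with TWEAK and 0.725 ± 0.0887 FPKM untreated (SD, n = 3 each), a fold of 2.21. The log2 fold change was 0.59 (SE 0.08, 95% interval 0.40 to 0.78, limma adjusted p = 0.00261), which is less than the fold because 1 is added to each FPKM. Within the trials the folds were 2.06, 2.20 and 2.42. It rested on 206 reads over the TWEAK libraries and 104 over the untreated ones, a depth-corrected ratio of 2.22 (95% exact binomial interval 1.75 to 2.84, counting error only). Il1bos, a noncoding gene that overlaps Il1b, averaged 0.00461 FPKM with TWEAK and 0.00415 FPKM untreated. The sources used here do not say whether reads were counted by strand, so reads of Il1bos and Il1b may not be told apart.

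The tested receptor genes of the IL-1 family rose. Il1rl1, which encodes the IL-33 receptor ST2, measured 1.44, 2.43 and 2.01 FPKM in TWEAK libraries, against 0.160, 0.298 and 0.302 FPKM in untreated libraries. The groups were far apart, at a 7.73-fold difference (log2 fold change 1.23, SE 0.13, limma adjusted p = 4.67e-04). Il1rl1 passed the minimum only through its TWEAK libraries, and its reads, 997 over the TWEAK libraries and 145 over the untreated ones, gave a depth-corrected ratio of 7.71 (95% exact binomial interval 6.47 to 9.24, counting error only). The same gene also encodes a soluble decoy form of ST2, and these values per gene do not separate the forms.

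Il1r1, which encodes the signalling receptor for IL-1, measured 9.59, 10.5 and 10.5 FPKM in TWEAK libraries, against 4.81, 5.18 and 5.81 FPKM in untreated libraries, without overlap. It rose 1.94-fold (log2 fold change 0.84, SE 0.08, limma adjusted p = 3.29e-04). Il1rap, the accessory chain shared by the IL-1 and IL-33 receptors, measured 1.21, 1.49 and 1.33 FPKM in TWEAK libraries, against 0.869, 0.841 and 0.862 FPKM in untreated libraries. It rose 1.57-fold (limma adjusted p = 0.0285), a call lost in 5 of the 6 fits that left out a library, with adjusted p up to 0.120. Il1r2, which encodes a decoy receptor, had 6 reads over the TWEAK libraries and 2 over the untreated ones.

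Over the 13 receptor genes, 9 were tested, 5 rose, 2 fell and 2 did not pass, with a median log2 fold change of 0.33. Over all tested genes, 8.98% were called higher and 6.10% lower, and the median was 0.01. The risen receptor genes were Il2rg, Il1r1, Il1rl1, Il6st and Il1rap, and the fallen ones Il2rb and Lifr. Of these, Il1rl1 passed the minimum only through its TWEAK libraries, and the Il1rap call was lost in 5 fits that left out a library. The ligand and the receptor genes of an axis thus did not always move together. For Il33 and Il15, which did not pass, the receptor genes Il1rl1 and Il2rg had large rises, while Il2rb, also used by IL-15, fell. Csf1 and Il34 rose where Csf1r was almost absent. Only the Il1b axis had both its ligand gene and its tested receptor genes called higher.

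**Figure D3:**
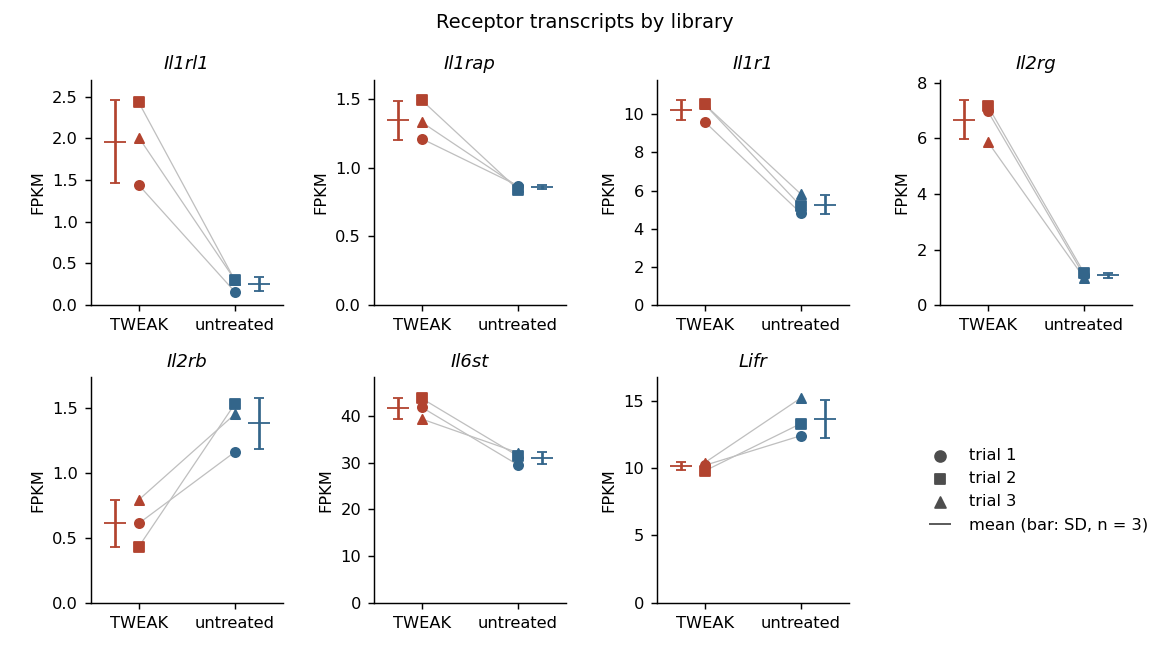
Expression of the 7 receptor genes past the threshold in each library, in FPKM on a linear axis from 0, with TWEAK left and untreated right. Symbols mark the trial, grey lines join libraries of the same trial, and bars give the mean and SD (n = 3). The groups do not overlap in any panel, the genes having been picked by the test: Il2rb and Lifr are lower and the other 5 higher in the TWEAK libraries. Of all tested genes, 20.0% had every TWEAK library higher and 15.9% every TWEAK library lower.

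**Figure D4:**
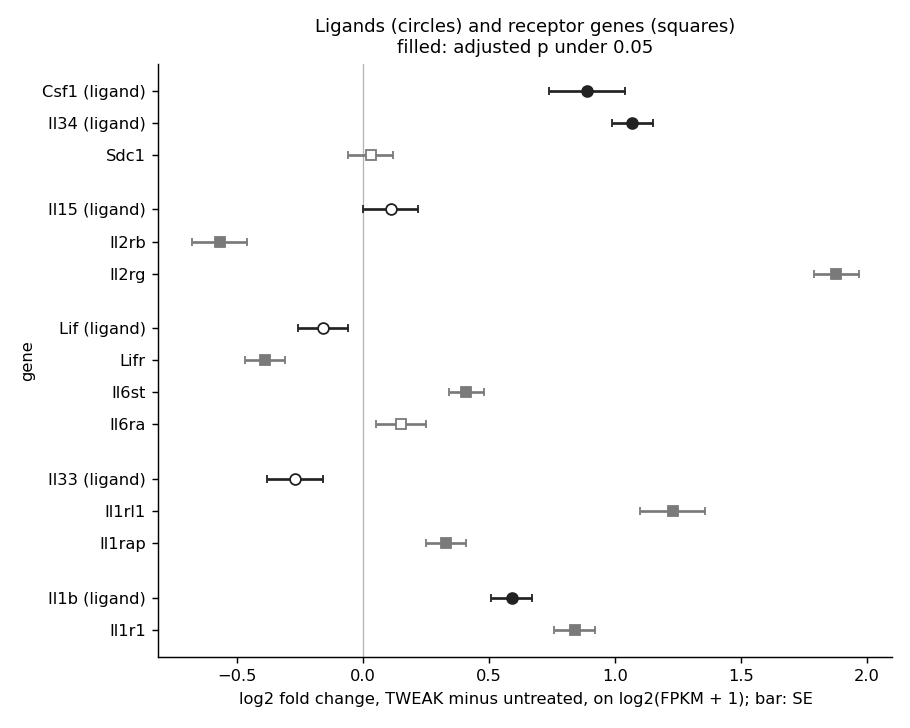
Log2 fold changes of TWEAK over untreated libraries, in units of log2(FPKM + 1), for the tested ligand genes (circles) and the tested receptor genes (squares), grouped by signalling axis, with SE as bars. Filled symbols passed an adjusted p of 0.05. On this scale Il2rg has the largest value, 1.88, while its ligand gene Il15 is at 0.11, and Il1rl1 is at 1.23 while Il33 is at -0.27. As a ratio of mean FPKM, Il1rl1 rose more, 7.73-fold against 6.21-fold for Il2rg. Il1rap, drawn with Il33, also serves Il1b.

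Genes that mature or relay IL-1 signals gave 3 rises and no fall among 10 tested of 14, with a median log2 fold change of 0.09. Of all tested genes, 8.98% were called higher and 6.10% lower. Gsdmd, which encodes the pore-forming protein through which mature IL-1 beta can leave a cell, measured 25.9, 28.1 and 26.7 FPKM in TWEAK libraries, against 9.33, 10.3 and 10.4 FPKM in untreated libraries. It rose 2.68-fold (limma adjusted p = 1.29e-05). Casp4, which encodes an inflammatory caspase that cleaves gasdermin D, measured 4.34, 5.30 and 5.12 FPKM in TWEAK libraries, against 0.970, 0.800 and 1.45 FPKM in untreated libraries, a 4.58-fold rise (limma adjusted p = 1.12e-04). Both genes were called whichever library was left out.

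Myd88, the adaptor of IL-1 and IL-33 receptors, rose to 6.89 ± 0.578 FPKM with TWEAK, against 5.51 ± 0.0871 FPKM untreated (SD, n = 3 each; limma adjusted p = 0.0443). The Myd88 call was lost in 5 of 6 fits that left out a library and, at 0.0555, with upper-quartile scaling. Casp1, which encodes the caspase that cleaves pro-IL-1 beta, was low at 0.583 ± 0.177 FPKM with TWEAK and 0.437 ± 0.133 FPKM untreated (SD, n = 3 each; limma adjusted p = 0.453). The inflammasome genes Nlrp3 and Pycard were close to 0, with 1 and 5 reads over the TWEAK libraries and 1 and 3 over the untreated ones. With the trial as a block, 1 gene of this list also fell: Tollip, an inhibitor of IL-1 signalling, at 22.4 ± 0.757 FPKM with TWEAK and 25.6 ± 1.16 FPKM untreated (SD, n = 3 each; limma adjusted p = 0.0404 with the block and 0.0920 without).

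Of 19 JAK-STAT genes, through which LIF, IL-6 and IL-15 signal, 16 were tested, 4 rose and 2 fell, with a median log2 fold change of 0.17. Of all tested genes, 8.98% were called higher and 6.10% lower. With the trial as a block, 5 of the list rose, Pim1 being added (limma adjusted p = 0.00803), and 2 fell. That fit called 15.4% of all tested genes higher and 12.5% lower. Tyk2, a kinase bound to gp130, measured 19.4, 20.9 and 16.3 FPKM in TWEAK libraries, against 9.99, 10.4 and 8.86 FPKM in untreated libraries, a 1.94-fold rise (limma adjusted p = 6.39e-04). Stat5a rose 1.29-fold (limma adjusted p = 0.0189), a call lost in 3 of 6 fits that left out a library. Stat5b, the close relative of Stat5a, fell to 9.78 ± 0.350 FPKM with TWEAK, against 13.1 ± 0.264 FPKM untreated (SD, n = 3 each; limma adjusted p = 0.00499). The other fall was Socs7, with a ratio of 0.760 (adjusted p = 0.0189, lost in 2 such fits), and Jak1 rose 1.18-fold (adjusted p = 0.0400, lost in 5 and, at 0.0687, with upper-quartile scaling). The feedback inhibitor Socs3, a target gene of LIF and IL-6 signalling, was at 10.1 ± 1.41 FPKM with TWEAK and 8.66 ± 0.295 FPKM untreated (SD, n = 3 each; adjusted p = 0.203).

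Of 11 other colony-stimulating factors and common gamma-chain cytokines, 3 were tested, with a median log2 fold change of -0.09. Of these 1 rose, where 8.98% of all tested genes were called higher. This was Flt3l, a growth factor for dendritic cells, with 1.52, 1.62 and 1.88 FPKM in TWEAK libraries, against 1.19, 1.18 and 1.15 FPKM in untreated libraries (limma adjusted p = 0.0461, lost in 5 of 6 fits that left out a library and, at 0.0542, with upper-quartile scaling). Of 9 other IL-1 family ligands and antagonists, 2 were tested and neither passed. These were Il18, at 2.90 ± 0.133 FPKM with TWEAK and 3.18 ± 0.0832 FPKM untreated (SD, n = 3 each; limma adjusted p = 0.397), and Il18bp.

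Other myokines gave both rises and falls: of 26 genes, 22 were tested, 2 rose and 4 fell, with a median log2 fold change of -0.16. Of all tested genes, 8.98% were called higher and 6.10% lower, so the rises were near the general share. Angptl4, an inhibitor of lipoprotein lipase, measured 12.2, 16.7 and 18.4 FPKM in TWEAK libraries, against 3.81, 4.18 and 5.01 FPKM in untreated libraries, a 3.64-fold rise (limma adjusted p = 1.44e-04). Apln, which encodes apelin, rose 2.17-fold, with 1.13 ± 0.260 FPKM with TWEAK and 0.520 ± 0.196 FPKM untreated (SD, n = 3 each; limma adjusted p = 0.0290, lost in 3 of 6 fits that left out a library).

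The falls included 3 ligands of the TGF-beta superfamily. Inhba, which encodes the activin A subunit, measured 6.79, 7.36 and 6.43 FPKM in TWEAK libraries, against 9.84, 11.9 and 12.7 FPKM in untreated libraries, a ratio of 0.597 (limma adjusted p = 0.00302). Gdf11, a close relative of myostatin, had a ratio of 0.714 (adjusted p = 0.00460) and Bmp4, a bone morphogenetic protein, a ratio of 0.656 (adjusted p = 0.00627). None of these 3 calls was lost when a library was left out. The fourth was Fstl3, which encodes an activin-binding protein (adjusted p = 0.0460, lost in 5 such fits and, at 0.0569, with a minimum of 0.1 FPKM). With the trial as a block, 3 of the 22 rose and 8 fell, the added falls being Fst, Fndc5, Fgf2 and Igf1. That fit called 15.4% of all tested genes higher and 12.5% lower.

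In order of level per length, the TWEAK libraries gave Csf1, Il34, Lif, Il33, Il15, Il1b and Il6, and only the neighbours Il33 and Il15 overlapped in range. The untreated libraries gave Csf1, Lif, Il34, Il33, Il15, Il1b and Il6, and there Lif overlapped Il34 and Il34 overlapped Il33. Il34 thus lay apart from Lif and Il33 with TWEAK, at 9.72 to 10.9 FPKM beside 4.21 to 4.85 FPKM for Lif.

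For each gene past the threshold, the nearest profiles were sought among 10856 genes with a mean of at least 1 FPKM. Predicted gene models, with symbols of Gm and a number or ending in Rik, were left out. The measure was the root mean square difference in log2(FPKM + 1) over the 6 libraries, each gene taken relative to its untreated mean, and the values are descriptions. Nearest to Csf1 were Cenph, a kinetochore gene, at 0.041, and Serpinb9d, a serine protease inhibitor gene, at 0.068. Nearest to Il34 were the proteasome activator gene Psme2b at 0.037 and Irf1, an interferon-regulated transcription factor gene, at 0.055. Irf1 averaged 31.9 ± 3.40 FPKM with TWEAK and 14.4 ± 0.688 FPKM untreated (SD, n = 3 each). Nearest to Il1b was Prkcd, a protein kinase C gene, at 0.055. Its fold in FPKM was 1.56, against 2.21 for Il1b, and the log2(FPKM + 1) scale shrinks the change of low genes. Psme2b and Serpinb9d have near-identical relatives among which reads may have been split, so their values are uncertain.

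The treated libraries also differed from the untreated ones in Nfkb2, a noncanonical NF-κB gene, at 77.5 ± 9.18 FPKM with TWEAK and 22.0 ± 1.73 FPKM untreated, and in the chemokine gene Ccl2, at 125 ± 28.8 FPKM with TWEAK and 1.95 ± 0.526 FPKM untreated (SD, n = 3 each). The libraries held 29980229 to 40919940 reads assigned to genes.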

How the data were processed

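RNA from 6 libraries was analysed. The submitters' processing notes list, for the authors' steps, DESeq2 1.22.2, HTSeq 0.6.1p2, STAR 2.6.0c, Trim Galore 0.5.0 and build GRCm39. Settings, annotation release and strand use were not given in the sources used here. Per the file headers, the deposited table gives FPKM per library and gene. The authors' comparison stands in the deposited table as well, as a mean signal per gene (normalised count), a log2 fold change, a score (its standard error) and an adjusted p-value. For 2337 genes with no reads in these libraries that mean is above 0, so the authors' fit may have included further libraries, not analysed here.

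The main test was limma-trend on log2(FPKM + 1) with group as the only term, over 12770 genes with a mean of at least 0.5 FPKM, two-sided, with Benjamini-Hochberg adjustment (limma 3.58.1, R 4.3.3). Folds are ratios of mean FPKM. Fold changes on the log2(FPKM + 1) scale understate changes of low genes. Il6 lay under the minimum and was fitted with none. Reads were recovered from the FPKM values by seeking, for each gene, a length that turned its values into whole numbers. Each of the 126386 non-zero values then gave a whole number (relative tolerance 1e-06). The lengths were chosen for this, so it is no separate check of the reads. A multiple of the smallest possible length was taken for 183 tested genes and for 0 of the 7 genes described. The recovered reads served for depth, for intervals and for limma-voom as an alternative. The limma steps were tested on simulated data. Promoters came from RefSeq (GRCm38.p6). Protein sequences were not used here, so the planned comparison of protein identity was not made. Python 3.11.15 with numpy 2.4.6, pandas 2.3.3, scipy 1.17.1 and matplotlib 3.10.9 did the rest.

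Trial numbers were treated as pairing the libraries only in the blocked fits and the within-trial comparisons. The main test had group as its only term, so its p-values, calls and counts leave the pairing out. For Csf1 the SE of the log2 fold change was 0.15 without the block and 0.06 with it. The pairing is not stated in the labels. It rests on correlations of deviations from group means, which were 0.473, 0.218 and 0.434 within trials 1, 2 and 3 and at most -0.02 between trials. The values between trials are pushed down by those within them. Blocked results are given where they change a call.

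The 7 genes and the 7 gene lists were chosen with earlier results of these data known. Named genes were the 7, their receptor genes, up to 3 risen and 3 fallen genes of each list by adjusted p, the 2 nearest profiles of each called member, Nfkb2 and Ccl2. Jak1, Fstl3, Tollip, Casp1, Nlrp3, Pycard, Socs3, Il18 and the markers named, among others, were added after their values were seen. Some genes that the rule or a count takes in are not reported here by name. Alternatives were another pseudocount, other minimums, upper-quartile scaling, the block, limma-voom and leaving out each library.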

Additional observations from a re-analysis of the deposited data

How the results depend on the processing

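Under 14 alternatives each, Csf1 (log2 fold change 0.76 to 1.04), Il34 (1.02 to 1.24) and Il1b (0.56 to 1.14) kept their direction and stayed under an adjusted p of 0.05, with highest values of 0.0490, 0.00697 and 0.0319, and Il15 and Lif stayed above it. Il33 ranged between -0.37 and -0.19. It passed when limma-voom of the recovered reads was combined with the replicate block (log2 fold change -0.36, adjusted p = 0.0270), which made the number of members lower 1, but with neither alone, and the cause was not tested. Il6 ranged between -0.11 and 0.01 when a library was left out and reversed without untreated replicate 3 (0.01), which held most of its untreated reads. Genes called higher and lower, 1147 and 779, became 499 and 302 with no minimum, 1965 and 1598 with the replicate block, 2114 and 1898 with limma-voom and the block, and 501 to 1266 and 343 to 835 when a library was left out, lowest without TWEAK replicate 2. With the block and no minimum, 477 were lower. Apart from the IL-6 family, myokine and IL-1 signalling lists, the block changed no list's count by over 1.5 times, and in the limma-trend fit it changed no call of the 7 genes. Few reads limit Il6, Csf1r, Il15ra, Il1r2 and Csf2, among others.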

Other observations

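Several related genes lay under the minimum and were looked at through their reads, chosen after their values were seen. Il1rn, which encodes the IL-1 receptor antagonist, measured 0.257, 0.327 and 0.263 FPKM in TWEAK libraries, against 0.0710, 0.0834 and 0.116 FPKM in untreated libraries. Its depth-corrected read ratio was 3.09 (95% exact binomial interval 1.93 to 5.10, counting error only), from 69 reads over the TWEAK libraries and 25 over the untreated ones. Irak3, which encodes an inhibitor of IL-1 receptor signalling, measured 0.255, 0.204 and 0.206 FPKM in TWEAK libraries, against 0.410, 0.364 and 0.327 FPKM in untreated libraries, a read ratio of 0.607 (0.442 to 0.828). The groups of both genes did not overlap. Of the tested genes, 20.0% had every TWEAK library higher and 15.9% every TWEAK library lower. Those shares leave out genes under the minimum, such as these. Csf2, the gene of the granulocyte-macrophage colony-stimulating factor, had 11 reads over the TWEAK libraries and 3 over the untreated ones, and 2 of its 3 untreated libraries were at 0. Mstn, which encodes myostatin, had 31 reads over the TWEAK libraries and 92 over the untreated ones, with untreated library 3 highest at 0.584 FPKM.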
